A study of Mus musculus with 8 samples.

Results

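The 6 genes described here encode enzymes that modify the proteins of the circadian clock after they are made. Csnk1d, Csnk1e and Csnk1a1 encode the delta, epsilon and alpha isoforms of casein kinase 1, Gsk3b encodes glycogen synthase kinase 3 beta, Btrc encodes the ubiquitin ligase subunit beta-TrCP and Usp2 encodes a deubiquitinase. They were chosen by name. Transcripts were taken whose RefSeq or Vega identifier belongs to one of these genes, which gave 33 transcripts, 3 of them of Usp2. They stand among 24143 genes named in the deposited tables, of which 11483 had enough reads to be tested, all 6 among them. A gene is represented here by its transcript with the most reads.

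In the clock of mammals the PER and CRY proteins build up over the day and repress the activators CLOCK and BMAL1, and the length of the cycle depends on how fast they are removed. Casein kinase 1 delta and epsilon phosphorylate PER proteins, beta-TrCP binds the phosphorylated form and hands it to the SCF ubiquitin ligase, and the proteasome degrades it. GSK3 beta phosphorylates several clock proteins, REV-ERB alpha among them, and USP2 removes ubiquitin and has been linked in mice to PER1, CRY1 and BMAL1.

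The samples were livers of wild-type (WT) C57/BL6 mice, kept for a week in 12 h of light and 12 h of darkness and then in darkness for a day before collection. No mutant or treated animals were sampled. Equal amounts of RNA from 3 animals were combined at each of 8 circadian times (CT) 6 h apart, and polyadenylated RNA was sequenced as 1 library per time. Sex and age are not in the labels. The times cover 2 internal days, so that each phase was sampled on both: CT29 and CT53 (CT5, mid subjective day), CT35 and CT59 (CT11, late subjective day), CT41 and CT65 (CT17, mid subjective night), and CT23 and CT47 (CT23, late subjective night). No time has a second library, so a p-value here rests on how far pooled libraries scatter about a fitted curve and not on differences between animals.

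Levels are given as RPKM, reads scaled by the length of the feature and the depth of the library. Between 11.7 M and 13.9 M reads (M, 10 to the power of 6) stood behind the scaling in 7 libraries and 22.9 M reads in CT35. CT35 also had 64.5 reads across splice junctions per 100 reads, against 41.4 to 49.5 in the other 7, so results that rest on it are given without it as well. The markers fitted liver: 6 of 6 hepatocyte markers summed to 40870 to 68270 RPKM over the libraries, 4 Kupffer cell markers to 21.8 to 36.5 RPKM and 3 endothelial markers to 8.89 to 14.1 RPKM. CT35 held the highest hepatocyte sum. Among 3 pancreas markers Prss1 and Pnlip were listed at 0 in all 8 libraries, and the third, Cela1, had 1.54 to 4.91 RPKM. In bulk tissue, fewer cells of a type and less RNA per cell cannot be told apart.

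**Figure D1:**
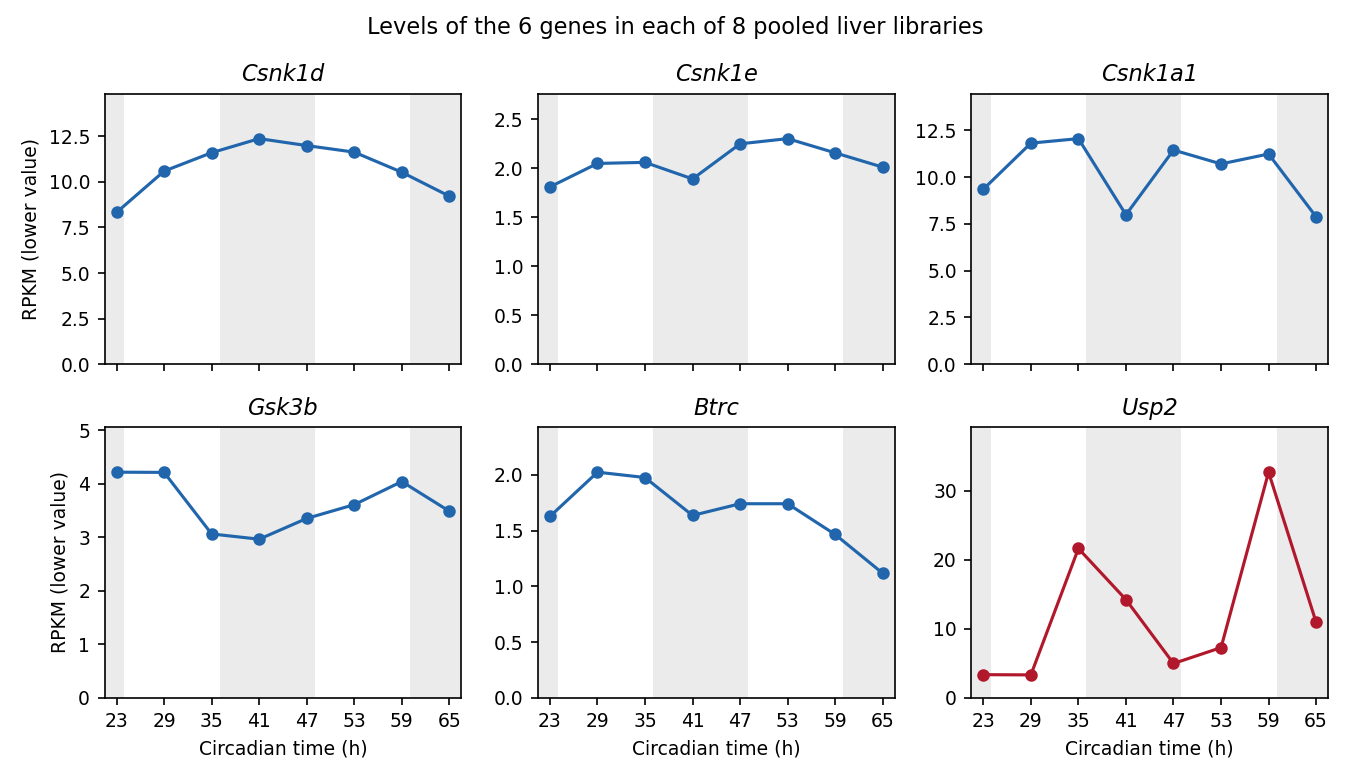
RPKM (lower value) of the 6 genes against circadian time in hours, with 1 point per pooled library and the subjective night shaded. Usp2 had its highest values at CT35 and CT59 (21.6 and 32.7 RPKM), while the highest value of each other gene was at most 1.81 times its lowest.

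Of the 6 genes, Usp2 alone rose and fell with a 24-h period that passed the test. Its mRNA had 3.36 RPKM at CT23, 3.32 at CT29, 21.6 at CT35, 14.2 at CT41, 4.98 at CT47, 7.28 at CT53, 32.7 at CT59 and 10.9 at CT65. Both libraries of late subjective day lay above all others, and both of late subjective night were below 5 RPKM. Between 129 and 1597 reads lay behind these values. A cosine and a sine of 24 h were fitted to log2(RPKM + 0.5) of all genes tested with limma, and p-values of the joint F test were corrected for all of them after Benjamini and Hochberg. A gene with an adjusted p under 0.05 is called. The fitted curve of Usp2 peaked at 12.7 h (SE 0.48), close to the start of the subjective night, and its peak was 7.21-fold above its trough (log2 2.85, SE 0.36, adjusted p = 0.0035). Of the 11483 genes tested 349 were called (3.04%), and Usp2 had the 21st largest amplitude among them. Without CT35 the amplitude of Usp2 was 2.91 on the log2 scale (adjusted p = 0.0205).

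At the ends of the subjective day and night Usp2 averaged 27.2 RPKM at CT11 and 4.17 RPKM at CT23. The difference between these phases was log2 2.56 (SE 0.36, adjusted p = 0.0037), and 234 of all genes tested (2.04%) were called. Without CT35 it was log2 2.63 (adjusted p = 0.0326). In the middle of the night and day it averaged 12.6 RPKM at CT17 and 5.30 RPKM at CT5. The fitted difference was log2 1.25 (SE 0.36) and was not called by limma (adjusted p = 0.137), where 138 genes (1.2%) were. DESeq2 on reads recovered from the RPKM called it (adjusted p = 0.0067), as it did 294 genes in all (2.56%). On the RPKM scale the median of all genes lay at -0.112 for this comparison, so relative to the typical gene the difference of Usp2 was larger by that much. Of the 138 genes 52 were higher and 86 lower at CT17. After TMM rescaling 112 genes were called (0.975%), 66 higher and 46 lower, and Usp2 was not among them. Usp2 had no called 12-h component (log2 0.41, SE 0.23, adjusted p = 0.608), a term that was called in 1 gene of all tested (0.00871%).

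Usp2 had a log2 difference of 0.44 (SE 0.21) between the second and the first day, which was not called (adjusted p = 1.0 by limma). On the second day it had 32.7 RPKM at CT59, 10.9 at CT65, 4.98 at CT47 and 7.28 at CT53, and on the first day 21.6 at CT35, 14.2 at CT41, 3.36 at CT23 and 3.32 at CT29. It was thus higher on the second day in 3 of 4 phases and lower in CT17. Limma called 0 of 11483 genes between the days (0.0%), with 233 at an unadjusted p under 0.05, and edgeR called 0 and DESeq2 1.

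The other 5 genes had no called 24-h component, and the highest value of each was 1.27 to 1.81 times its lowest. Csnk1d, whose kinase is the main one for PER proteins together with its epsilon relative, had 8.32, 10.6, 11.6, 12.4, 12.0, 11.6, 10.5 and 9.21 RPKM from CT23 to CT65 in order of time. Its values climbed to CT41 and declined again over both days, so that the 2 libraries of a phase often differed more than the phases did. Csnk1e had 1.81, 2.05, 2.06, 1.89, 2.25, 2.30, 2.16 and 2.01 RPKM over the same times. It varied least of the 6, with a coefficient of variation of 8.13% against 84.0% for Usp2. Csnk1a1, whose product is an alpha isoform known mainly from Wnt signalling, had 9.35, 11.8, 12.1, 7.99, 11.4, 10.7, 11.2 and 7.88 RPKM.

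The 2 lowest values of Csnk1a1 were both at CT17, with 7.93 RPKM on average there and 11.3 RPKM at CT5. Its 24-h curve peaked at 6.25 h (SE 1.58) with a 1.42-fold peak over trough (log2 0.50, SE 0.21), the largest among these 5 genes, and was not called (adjusted p = 0.379). Gsk3b had 4.22, 4.21, 3.06, 2.97, 3.35, 3.61, 4.04 and 3.49 RPKM from CT23 to CT65. Its low values at CT35 and CT41 did not recur at CT59 and CT65. Btrc had 1.63, 2.02, 1.98, 1.64, 1.74, 1.74, 1.46 and 1.12 RPKM, with its lowest value in the last library.

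The 24-h curves of these genes had log2 amplitudes of 0.36 for Btrc (SE 0.21, adjusted p = 0.582), 0.26 for Gsk3b (SE 0.20, adjusted p = 0.74), 0.15 for Csnk1d (SE 0.23, adjusted p = 0.917) and 0.13 for Csnk1e (SE 0.18, adjusted p = 0.898) by limma. A fitted amplitude is never negative, and its median over all genes tested was 0.363, which 4 of these 5 genes did not exceed. A curve that misses the threshold is not shown to be flat. Going 2 SE above the estimate, log2 amplitudes up to 0.92 for Csnk1a1, 0.77 for Btrc, 0.67 for Gsk3b, 0.60 for Csnk1d and 0.50 for Csnk1e were compatible with the data. None of the 5 was called between CT11 and CT23, between CT17 and CT5, for a 12-h component or between the days, with adjusted p-values of 0.33 or more by limma.

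**Figure D2:**
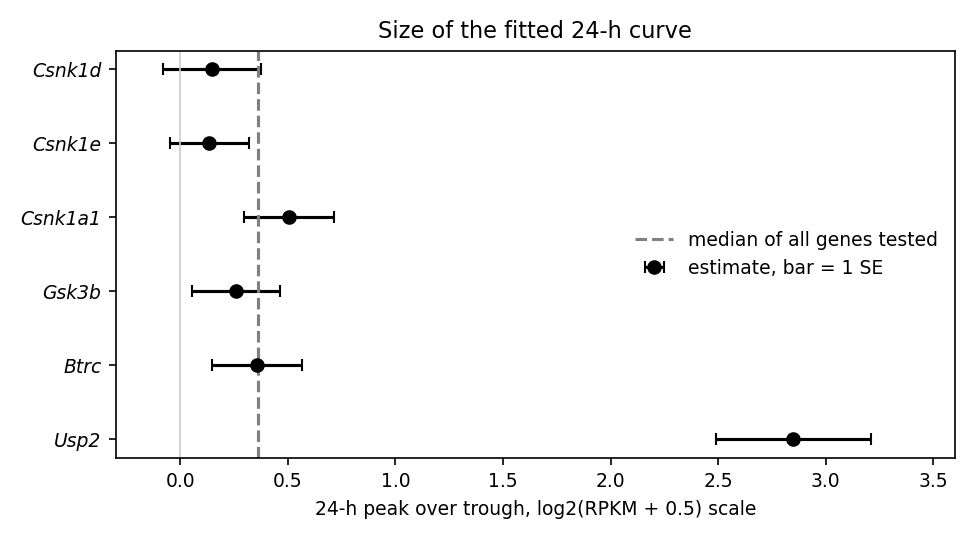
Fitted 24-h peak over trough of the 6 genes on the log2(RPKM + 0.5) scale, with bars of 1 SE and the median of all 11483 genes tested as a dashed line. Usp2 lies at 2.85 and the other 5 between 0.13 and 0.50, around the median of 0.36.

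A shorter transcript gave larger curves for a pair of these genes. For Csnk1e a transcript of 608 bases and for Gsk3b one of 1750 bases have the largest RPKM summed over the libraries, and their log2 amplitudes were 0.51 (adjusted p = 0.488) and 0.44 (adjusted p = 0.572), neither called by limma. Of the 12 transcripts of Csnk1e 10 were tested, and of the 10 of Csnk1d, the 5 of Gsk3b, the 2 of Btrc and the 1 of Csnk1a1 all were. None was called, with a smallest adjusted p of 0.224 for a Csnk1e transcript, against 794 of 44994 transcripts in all (1.76%). Csnk1e shares 9.42% of its exon bases with Gm16059 on the opposite strand and Gsk3b 3.13% with BC031361. Reads of such pairs cannot be told apart without a stated strand setting of the counting.

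The levels of the 6 genes were set in order by the mean log2 RPKM over the libraries, which are values per length of transcript. Csnk1d (10.8 ± 1.41 RPKM, SD, n = 8) came first, followed by Csnk1a1 (10.3 ± 1.68), Usp2, Gsk3b (3.62 ± 0.495), Csnk1e (2.07 ± 0.168) and Btrc (1.67 ± 0.288). The arithmetic mean of Usp2 was the highest of all (12.3 ± 10.3 RPKM). Gsk3b was above Csnk1e and Csnk1e above Btrc in 8 of 8 libraries (log2 differences of 0.68 and 0.25). Both differences gave p = 0.0078 in an exact 2-sided sign-flip permutation test, the smallest p that 8 pairs allow, with an adjusted p of 0.0195 over the 5 neighbouring pairs. The order of Csnk1e and Btrc holds for values per whole transcript only. The median of the exon means was 8.22 RPKM in Btrc and 4.09 in Csnk1e, while the last exon of Btrc averaged 0.922. Btrc also had 827 reads over its 14 annotated junctions, against 229 over 9 in Csnk1e. Csnk1d and Csnk1a1 did not differ beyond their spread (log2 0.07, exact permutation p = 0.57, adjusted p = 0.713), nor did Csnk1a1 and Usp2 (log2 0.14, exact permutation p = 0.734, adjusted p = 0.734). Usp2 was above Gsk3b in 6 of 8 libraries (log2 1.24, exact permutation p = 0.0391, adjusted p = 0.0651). With the shorter transcripts of largest RPKM Csnk1d was 1.62 above Csnk1a1 on the log2 scale (adjusted p = 0.013, exact permutation test), and Usp2 was 0.22 above Gsk3b (adjusted p = 0.734).

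Usp2 makes proteins of different length from different first exons. In mm9 its long transcripts NM_198092 (chr9:43875104-43903710) and NM_016808 (chr9:43877512-43903710) share a second exon with 816 coding bases at chr9:43883449-43884305, and the short transcript NM_198091 (chr9:43893003-43903710, + strand) begins at its own exon at chr9:43893003-43893418. From a 51-base exon on, the long and short forms are the same. In the GENCODE M21 annotation of GRCm38 the short form codes for 396 amino acids and the long form NM_198092 for 619, of which the 1041 coding bases after the first coding exon are shared. The sequences below, read from the GENCODE M21 transcripts, show where the forms part, 5′ to 3′. Lower case marks bases of the form's own exon, which for the short form are its whole coding part beginning with the start codon and for the long form the last 147 bases, and capitals mark the first common exon.
Usp2 short form: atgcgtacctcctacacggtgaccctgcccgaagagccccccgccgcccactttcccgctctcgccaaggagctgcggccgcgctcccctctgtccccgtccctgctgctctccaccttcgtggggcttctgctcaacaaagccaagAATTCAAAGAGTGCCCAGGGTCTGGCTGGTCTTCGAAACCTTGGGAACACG
Usp2 long form: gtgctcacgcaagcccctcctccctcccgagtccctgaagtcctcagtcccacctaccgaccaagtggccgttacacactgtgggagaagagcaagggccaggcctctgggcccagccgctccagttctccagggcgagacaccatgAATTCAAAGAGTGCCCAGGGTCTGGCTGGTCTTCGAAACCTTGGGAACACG

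All 3 Usp2 transcripts were called for a 24-h component, with log2 amplitudes of 2.76, 2.77 and 2.85 and adjusted p-values of 0.0063 to 0.0077 by limma. They share 11 exons, and the value of a transcript counts the reads of all its exons. The exons that the forms do not share separate them. The exon of the short form had 4.06 RPKM at CT23, 2.60 at CT29, 23.2 at CT35, 11.1 at CT41, 5.97 at CT47, 7.34 at CT53, 40.9 at CT59 and 7.28 at CT65. The coding exon of the long form had 0.807, 1.07, 1.43, 1.5, 0.905, 1.5, 1.98 and 0.505 RPKM at the same times. The short form's exon was higher in every library, by 2.44-fold at CT29 and by 16.3-fold and 20.6-fold at CT35 and CT59.

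The short form's exon had a fitted log2 amplitude of 2.70 (SE 0.59), which did not pass the threshold across the 102498 exons tested (adjusted p = 0.115), and the long form's exon one of 0.76 (SE 0.30, adjusted p = 0.505). The long form's exon rested on 6 to 28 reads a library. Against the other exons of Usp2 it differed by log2 -2.41 in the comparison of CT11 with CT23 and by -1.65 in that of CT17 with CT5, which is the lowest among the 13 Usp2 exons in both. Neither difference was called across all exons (unadjusted p = 0.0028 and 0.0373, adjusted p = 1.0 in both, diffSplice in limma), where 10 of 101114 exons were called for the first comparison (0.00989%) and 0 for the second, with 1385 at an unadjusted p under 0.05. The first exon of NM_198092 had 3, 5, 11, 7, 1, 7, 7 and 2 reads from CT23 to CT65, and the intron between it and the long form's coding exon had 5, 2, 8, 5, 4, 4, 7 and 8 reads over 8145 bases. No rise at CT11 can be read from counts as low as these.

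Spliced reads into the first common exon told the forms apart directly. Over all libraries 74 such reads were seen, of which 61 came from the short form's exon (82.4%, exact 95% interval 71.8 to 90.3%) and 9 from the long form's coding exon (12.2%, interval 5.7 to 21.8%). The other 4 came from positions in no transcript model. CT35 alone held 41 of the 74 reads, and without it 26 of 33 came from the short form (78.8%, interval 61.1 to 91.0%). The share by time is too thinly counted to compare: it was 8 of 10 reads at CT59 and 35 of 41 at CT35, against 0 of 2 at CT23 and 4 of 6 at CT47. Intervals here and below are Clopper-Pearson intervals and cover counting error only.

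**Figure D3:**
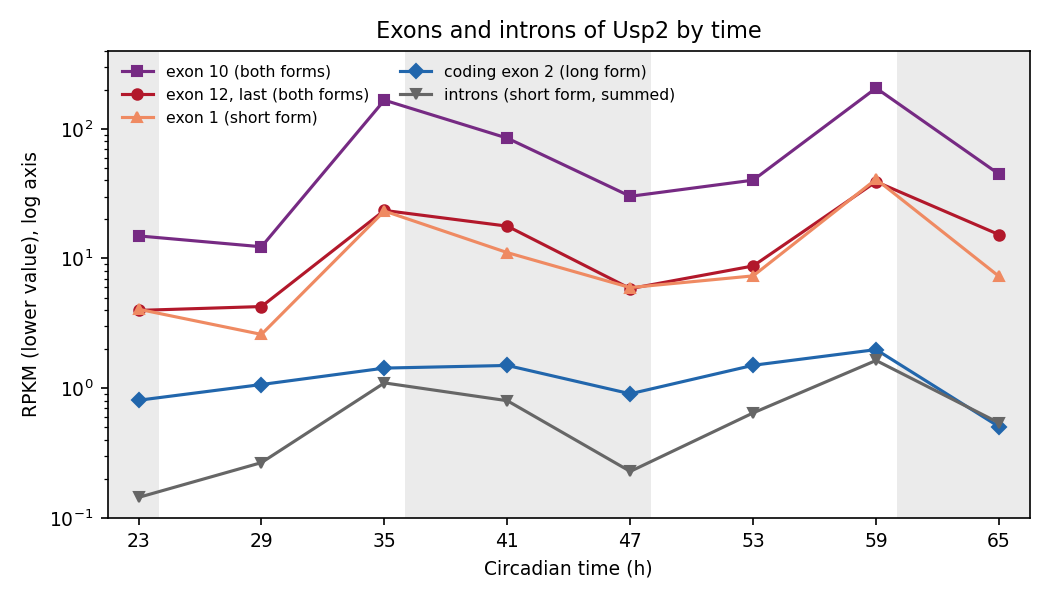
RPKM of 4 Usp2 exons and of the summed introns of its short form against circadian time in hours, on a log axis, with 1 point per library and the subjective night shaded. The exons used by both forms, the short form's exon 1 and the introns all peak at CT35 and CT59, while the long form's coding exon stays between 0.505 and 1.98 RPKM.

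In each of the 12 exons of the short form both CT11 libraries were above both CT23 libraries. Of these exons 7 were called for a 24-h component by limma, against 695 of all 102498 exons tested (0.678%), and log2 amplitudes ran from 2.70 to 4.84 over the 12. Exon 5, at chr9:43899295-43899405, had the largest amplitude (28.7-fold, log2 4.84, SE 0.55, peak at 12.7 h, adjusted p = 0.0027). It had 45.7 RPKM at CT35 and 20.7 at CT59, against 1.38 at CT23 and 0.699 at CT47. It passed the read filter only through CT35 and CT59, where it is high, so its call is not independent of that phase. The last exon, exon 12 with 1854 bases at chr9:43901857-43903710, held the most reads and rose 7.31-fold between trough and peak (log2 2.87, SE 0.43, peak at 12.9 h, adjusted p = 0.0162). The fitted peaks of the 12 exons lay between 11.5 and 13.1 h.

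Exons 9, 10 and 11, within chr9:43900560-43901330, were covered more deeply than the rest. They averaged 67.8, 74.95 and 59.97 RPKM over the libraries, against 11.04 to 28.2 RPKM for exons 1 to 8 and 14.8 for exon 12. The shortest exons, 2 and 6, averaged 26.4 and 24.9 RPKM. The 12 exons together held 8017 reads, against 4634 for the transcript, so some reads were counted in more than 1 exon. The part of such reads in the depth of exons 9 to 11 was not tested. Spliced reads were also most numerous there, with 515 reads from exon 9 to exon 10, 393 from exon 10 to exon 11 and 506 from exon 11 to exon 12, against 27 to 210 for each of the 8 junctions before them. The other exons called were 4, 8, 9, 10 and 11, with log2 amplitudes of 3.36 to 3.86. Without CT35 limma called 3 member exons, without CT23 1 and without CT59 0. Over all exons tested it called 0.67%, 0.292% and 0.236% in these fits. Exons 2, 5 and 6 had too few reads to be tested without CT35 or CT59. They passed the read filter only through these CT11 libraries, so the number of exons called is not independent of that phase. Exon 5 was called in every fit with 1 library left out in which it was tested, all of which held both CT11 libraries (log2 4.54 to 5.34, largest adjusted p = 0.0178). The log2 amplitudes of the 7 exons were 2.53 or more in every fit with 1 library left out that tested them. No exon of the other 5 genes was called, with a smallest adjusted p of 0.486 for one of Gsk3b.

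**Figure D4:**
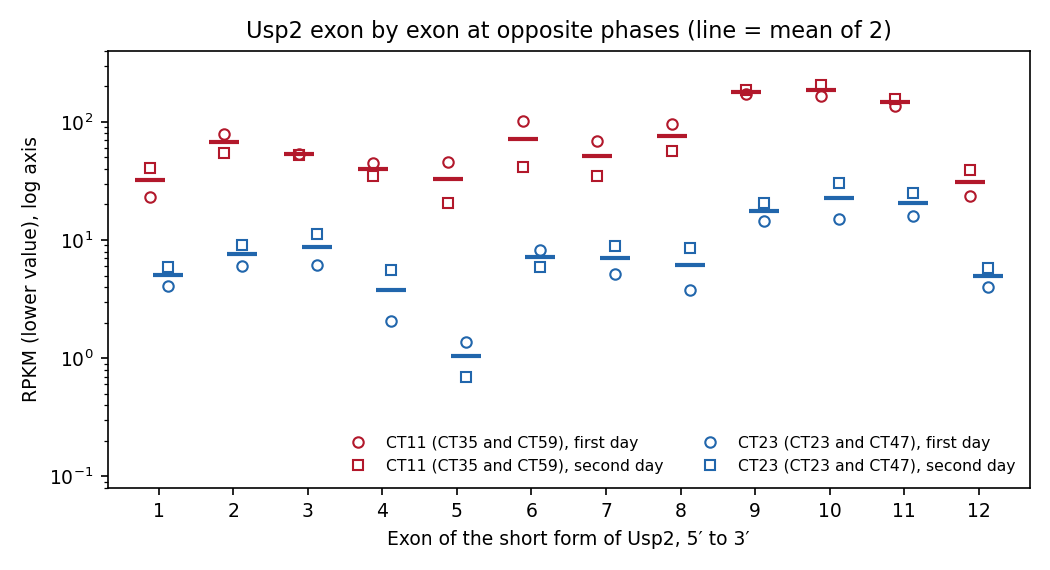
RPKM of each of the 12 exons of the short form of Usp2 on a log axis, from the 5′ to the 3′ end, with open symbols for single libraries and a line for the mean of the 2 libraries of a phase. In every exon both CT11 libraries lie above both CT23 libraries, and exons 9 to 11 are the highest at both phases.

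Reads across splice junctions, which the deposited files give as whole counts, were tested apart with edgeR's quasi-likelihood test. The annotated junctions of the short form summed to 52, 36, 1158, 200, 83, 93, 512 and 143 reads from CT23 to CT65. Per M junction reads of the library this was 9.59, 6.83, 78.5, 34.5, 13.3, 15.1, 91.9 and 24.9, with CT35 and CT59 again highest. Of 6 Usp2 junctions with enough reads 4 were called, against 164 of 32781 junctions in all (0.5%), with fitted peaks from 12.4 to 12.6 h. The junction from exon 8 to exon 9 had 3, 4, 136, 17, 3, 3, 31 and 13 reads and the largest fold of the 4 (25.4-fold, adjusted p = 0.0034, edgeR). Over all junctions tested 0.08% were called without CT23, 0.531% without CT35 and 0.265% without CT59. Without CT23, 2 Usp2 junctions were called. Without CT35 or CT59, 3 of the 6 had too few reads to be tested, and 2 of the other 3 were called. The 3 join exons 3 and 4, 7 and 8, and 8 and 9. They passed the read filter only through the CT11 libraries, where they are high, so the number called among the 6 is not independent of that phase. The junction from exon 8 to exon 9 was called in every fit with 1 library left out in which it was tested, all of which held both CT11 libraries (log2 4.36 to 4.97, largest adjusted p = 0.02). Of 6 junctions of Csnk1d, 8 of Csnk1a1, 4 of Gsk3b and 1 of Btrc tested none was called, and none of Csnk1e had enough reads.

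Intron reads, which come mostly from RNA not yet spliced, rose and fell in Usp2 as well. Its 11 introns in the short form (7482 bases) had 0.144 RPKM at CT23, 0.267 at CT29, 1.10 at CT35, 0.8 at CT41, 0.228 at CT47, 0.645 at CT53, 1.64 at CT59 and 0.539 at CT65, from 14 to 188 reads. Both CT11 libraries were highest and both CT23 libraries lowest. The 24-h component was called by limma (log2 1.47, SE 0.21, peak at 11.8 h, SE 0.54, adjusted p = 0.00092), as were those of 193 of 9846 genes tested (1.96%). At levels near the pseudocount this scale understates the change, and edgeR on the intron reads gave 8.14-fold (adjusted p = 0.00019). Without CT35 the log2 amplitude was 1.59 (adjusted p = 0.0079).

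The ratio of exon to intron values of Usp2 had a 24-h curve of its own with a log2 amplitude of 1.47 (SE 0.24) at a pseudocount of 0.5. It was not called (adjusted p = 0.0556, limma), where 38 of 9210 genes were (0.413%). The amplitude was 0.85 (adjusted p = 0.495) with a pseudocount of 0.1 and 1.74 (adjusted p = 0.024) with 1, so its size depends on how low intron values are treated. Without CT35 it was 1.43 and was called (adjusted p = 0.0245). Introns of the other 5 genes averaged 0.0716 RPKM for Btrc, 0.112 for Csnk1e, 0.118 for Gsk3b, 0.276 for Csnk1a1 and 0.405 for Csnk1d. None had a called 24-h component by limma (adjusted p of 0.933 or more), on a scale that flattens such low values. By edgeR on the intron reads the fold ran from 1.11 in Gsk3b to 1.59 in Csnk1e. None was called there either, with a smallest adjusted p of 0.468 for Btrc (1.49-fold). Their highest intron value was 1.43 times the lowest in Csnk1d and Csnk1a1, and 3.10 times in Gsk3b, whose lowest was CT35.

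Junction reads also counted the splice choices of the kinases and the ligase subunit. In Csnk1d, exon 9 of 63 bases (chr11:120826262-120826324, - strand) decides the end of the protein. With it 10 codons follow exon 8 before the stop codon, and without it 16 codons of the last exon do, for 409 and 415 amino acids. The ends are shown from the GENCODE M21 transcripts, 5′ to 3′, with the last 45 bases of exon 8 in lower case and the bases after it, up to and with the stop codon, in capitals.
Csnk1d with exon 9: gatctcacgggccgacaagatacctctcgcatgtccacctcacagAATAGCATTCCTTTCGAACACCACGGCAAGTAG
Csnk1d without exon 9: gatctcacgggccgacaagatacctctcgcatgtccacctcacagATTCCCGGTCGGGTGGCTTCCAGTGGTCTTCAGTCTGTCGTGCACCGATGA

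Of 260 reads leaving exon 8 for exon 9 or 10, 227 entered exon 9 (87.3%, interval 82.6 to 91.1%), with 81.8 to 94.3% in single libraries. Of 93 reads entering exon 10 from exon 8 or 9, 60 came from exon 9 (64.5%, interval 53.9 to 74.2%). Fewer reads thus joined exon 9 to exon 10 than exon 8 to exon 9, and the share that skipped exon 9 depends on which side is counted. Over the libraries the intervals of these shares overlapped on both sides, and a change with time was not tested.

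In Gsk3b an extra exon of 39 bases, 13 codons, lies between annotated exons at chr16:38217199-38217237. It is shown in capitals between 15 bases of either neighbour, from a GENCODE M21 transcript, 5′ to 3′.
Gsk3b extra exon: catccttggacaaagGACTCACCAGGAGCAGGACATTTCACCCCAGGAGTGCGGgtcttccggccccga
It was joined to the exon before it by 23 of 402 reads (5.7%, interval 3.7 to 8.5%) and to the exon after it by 26 of 405 (6.4%, interval 4.2 to 9.3%), with the rest skipping it. Single libraries held 3.6 to 8.3% on the first side. The form without the extra exon was thus the main one in every library.

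Csnk1a1 (chr18:61715236-61747953) had splice sites outside its transcript model. An exon of 84 bases at chr18:61731528-61731611, in no model of the files, was joined on its 5′ side by 16 of 435 reads (3.7%, interval 2.1 to 5.9%) and on its 3′ side by 31 of 450 (6.9%, interval 4.7 to 9.6%). Before the last intron, 81 of 208 reads used a splice site 36 bases further on (38.9%, interval 32.3 to 45.9%). CT35 held 92 of these 208 reads, and without it the share was 37.9%. In single libraries it ran from 15.4 to 66.7%, with 13 and 18 reads behind those extremes. In Btrc, exon 3 of 78 bases at chr19:45531023-45531100 was skipped by 5 of 76 reads leaving exon 2, so that 93.4% included it (interval 85.3 to 97.8%). On its other side, 31 of 36 reads entering exon 4 from exon 2 or 3 came from exon 3 (86.1%, interval 70.5 to 95.3%).

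**Figure D5:**
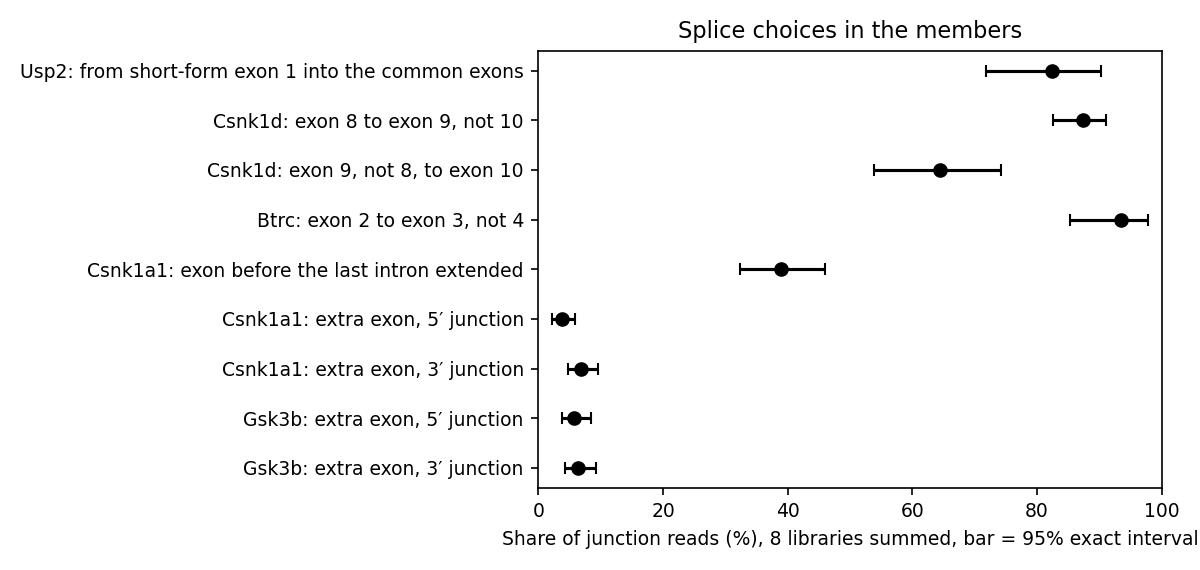
Share of junction reads, in percent and summed over 8 libraries, that took the named splice choice in Usp2, Csnk1d, Btrc, Csnk1a1 and Gsk3b, with exact 95% intervals as bars. The extra exons of Csnk1a1 and Gsk3b lie between 3.7 and 6.9%, and the short form of Usp2 at 82.4%.

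The genes with the time course most like that of Usp2 were sought among 11482 other genes tested, by the root mean square difference of mean-centred log2 values over 8 libraries. The nearest was Wee1, a kinase that holds cells before mitosis, at 0.392, followed by Fkbp5, a co-chaperone of the glucocorticoid receptor (0.395), Cyp2a5, a cytochrome P450 (0.419), Per3, a clock gene (0.446), and Por, the reductase that gives electrons to P450 enzymes (0.490). The median over all genes was 1.09. Wee1 had 0.696, 0.656, 3.71, 1.83, 0.635, 1.29, 3.98 and 1.69 RPKM from CT23 to CT65. Like Usp2 it had its highest values at CT35 and CT59, and its fitted peak was at 12.3 h (SE 0.48). As it was picked for likeness to Usp2 in these same libraries, this is no separate result. Por was not called by limma (adjusted p = 0.0578) and was called by DESeq2 (adjusted p = 0.00022), and Cyp2a5 was at the threshold with an adjusted p of 0.04999 (limma). Its call was lost without any of 6 of the 8 libraries.

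Most genes of the clock proteins that these enzymes act on had large 24-h amplitudes. Of 10 clock genes tested 9 were called for a 24-h component, against 3.04% of all genes tested, with a median log2 amplitude of 2.89 against 0.36 over all. When a single library was left out, 6 to 8 of the 10 were called, and 177 to 480 of all genes. Between CT11 and CT23, 5 were higher at CT11 (as were 0.932% of all genes tested) and 3 lower (as were 1.11% of all). Nr1d2, which encodes REV-ERB beta, peaked at 8.57 h (log2 3.04, SE 0.21), Per3 at 11.5 h (3.19, SE 0.28), Per2 at 14.7 h (2.74, SE 0.27) and Arntl, which encodes BMAL1, at 21.6 h (15.9-fold, SE 0.37 on the log2 scale). The peak of Usp2 at 12.7 h (SE 0.48) lay between those of Per3 and Per2. Cry2 was not called by limma (log2 1.14, SE 0.24, adjusted p = 0.0546) and was called by DESeq2 (adjusted p = 0.0057).

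In the lists of related enzymes, which hold the 6 genes as well, limma called no gene but Usp2. At 3.04% called over all genes tested (6.69% by DESeq2), lists of this size would hold about as few calls, so the counts are near the background. Of 9 casein kinase 1 and 2 genes 0 were called (median log2 amplitude 0.28), with Csnk2b at 107 ± 14.2 RPKM and Csnk1g2 at 26.6 ± 4.51 RPKM the most abundant (SD, n = 8). Of 13 other kinases known to act on clock proteins 0 were called (median 0.40). Gsk3a, the alpha relative of Gsk3b, had 31.1 ± 5.61 RPKM, and the MAP kinase gene Mapk3 17.5 ± 3.09 RPKM. Of 7 phosphatase catalytic subunits limma called 0 (median 0.32) and DESeq2 called 1, Ppp1cc, named after its value was seen. Ppp1ca had 43.9 ± 11.7 RPKM and Ppp5c, whose phosphatase is known to act on casein kinase 1 epsilon, 16.6 ± 2.94 RPKM.

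Of 10 genes of the SCF ligase core and its F-box proteins 0 were called (median log2 amplitude 0.31). Skp1, the adaptor of F-box proteins, had 37.8 ± 5.69 RPKM and Nedd8, which activates cullins, 34.3 ± 5.52 RPKM (SD, n = 8). Of 9 other ubiquitin ligase genes tested 0 were called (median 0.38), with Stub1 at 28.1 ± 4.26 RPKM and Ddb1 at 25.8 ± 4.76 RPKM. Dtl, the remaining gene of that list, had too few reads. Of 13 deubiquitinase genes 1 was called, Usp2 (median 0.42), by limma and also by DESeq2, again near the share called over all genes. Usp10 (30.2 ± 3.94 RPKM, adjusted p = 0.704) and Otub1 (23.5 ± 5.68 RPKM, adjusted p = 0.802) were not called by limma.

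Promoters of these genes were searched in a RefSeq table of GRCm38.p6, which holds 250 bases before and 50 after each start. It gave 6 windows for 3 of the 6 genes: 4 for Csnk1e, 1 for Gsk3b and 1 for Usp2. The Usp2 window, at chr9:44084670-44084969, lies at the start of the short form. The motifs were the E-box CACGTG, its variant AACGTG, the D-box TTANGTAA and the REV-ERB and ROR half-sites TAGGTCA and TGGGTCA, each on both strands. None of the 6 windows held any of them, and over all 32851 promoters 7.15, 4.68, 2.32, 2.61 and 3.98% did, in that order. This says only that these letters are not in these windows.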

How the data were processed

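Per the submitters' processing notes reads were aligned to mm9, and all coordinates of the files are in that build. The deposited tables hold, for each transcript, exon and intron, a lower and an upper value named min and max in the file headers. Their values scale as reads per length and depth, that is as RPKM, and other quantities the tables hold are their lengths. The deposited junction files give counts of reads across junctions and name RUM in their headers. No source used here states the version of RUM, the quantifying program, the length of reads or the strand setting.

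The lower value was used. Whole reads were recovered from it, within 0.1 read for 99.998 to 100.0% of transcripts with up to 1000 reads per library. Of 115699 transcripts 79709 were named through RefSeq or Vega identifiers. Features with at least 20 reads in at least 2 libraries were tested on log2(RPKM + 0.5) with limma 3.58.1 (trend, robust), with cosine and sine of 24 h (5 residual degrees of freedom), which understates changes of low values. The contrasts of opposite phases are the cosine and sine terms alone, the 12-h term sets CT23 and CT11 against CT5 and CT17, and the days were compared with phase as a block. Exons unlike their gene were tested with diffSplice, junction counts with edgeR 4.0.16, and DESeq2 1.42.0 was an alternative. The scripts were tested on simulated data. The replicate numbers follow accession order and only name the internal day.

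The transcript with the most reads stands for a gene. The choice first set for the genes other than Usp2 was the one with the largest summed lower value. It picks short transcripts, a fragment of 192 bases for Csnk1d, so it was replaced and kept as an alternative after the data were seen. Members, gene lists, motifs and tests were chosen with earlier results of these data known. Named were all 6 genes, all Usp2 parts, any called part of the others, the 5 genes nearest to Usp2, and per list up to 4 called genes of smallest adjusted p and 2 of highest mean not called. Marker lists also covered stellate cells (3.63 to 7.25 RPKM summed), cholangiocytes (2.77 to 9.26), lymphocytes (0.663 to 2.27), neutrophils (0.148 to 1.19) and red blood cells (13.4 to 32.5).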

Additional observations from a re-analysis of the deposited data

How the results depend on the processing

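The 24-h call of Usp2 and its call between CT11 and CT23 held under all 19 alternatives run, and no other of the 6 genes was called for either in any of them. The log2 amplitude of Usp2 ran from 2.50 to 3.18 and its adjusted p from 1.03e-13 (DESeq2) to 0.0485 (no read filter). With internal day as a replicate block the adjusted p was 0.0023 and the 6 genes' calls for every contrast fitted were the same, while the junction from exon 3 to exon 4 lost its call (0.051), which left 3 junction calls. The replicate numbers only name the day. Between CT17 and CT5 DESeq2 called 1 member, Usp2, and limma 0, where they called 2.56% and 1.2% of all genes tested.

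Without a read filter, 0 Usp2 transcripts, 0 member exons and 0 member introns were called, and 9 member junctions. Over all features at that setting 0.142% of transcripts, 0.000809% of exons, 0.0318% of genes by introns and 0.493% of junctions were called. The 24-h component of exon over intron was called in 1 member, Usp2, under some alternatives. These were a pseudocount of 1 (adjusted p = 0.024, limma), TMM rescaling (0.0363), equal medians (0.0374) and the fit without CT35 (0.0245). With single libraries left out, member exon calls ran from 0 to 10, junction calls from 2 to 5 and exon over intron calls from 0 to 1. Over all features tested the shares called ran from 0.236 to 0.67%, from 0.08 to 0.531% and from 0.0219 to 1.66%. Calls over all genes numbered 349, and 89 without a filter, 768 with DESeq2, 200 with the transcript of largest lower value and 177 to 480 with single libraries left out. From exon rows in place of junction reads the short form of Usp2 had 91.4% of the 2 forms. Leaving out single libraries, the log2 difference of Csnk1a1 over Usp2 ran from -0.0803 to 0.375 and that of Csnk1d over Csnk1a1 from -0.00947 to 0.099, neither passing the threshold. Depth limits the long form of Usp2 (115 reads on its coding exon in 8 libraries) and the shares of splice choices by time.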
